A study of Mus musculus with 8 samples.

Results

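Antioxidant and glutathione enzymes are the proteins that remove superoxide, peroxides and reactive electrophiles from a cell and keep its thiols reduced. Their genes were taken here by name: the glutathione transferases (Gsta, Gstk, Gstm, Gstp, Gstt, Gsto, Gstz and the membrane-bound Mgst), the peroxiredoxins, superoxide dismutases and glutathione peroxidases, every gene whose symbol begins with Txn, the glutathione synthesis genes Gclc, Gclm and Gss, and Gsr, Cat, Hmox1, Hmox2, Nqo1, Mt1 and Mt2. A probe set, a group of short oligonucleotides that measures 1 transcript on an Affymetrix array, was a member where it carried 1 gene symbol and that symbol was on this list. This gave 70 of 12488 probe sets, for 53 of the 8252 genes named on the array. In 39 of these genes there was 1 probe set, and in 14 there were several. The names begin with Txn in some genes that encode no thioredoxin, and these are described separately.

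The tips of secondary alveolar septa, the ridges that divide the air spaces of the newborn lung, were compared with whole lung. Tips were lifted by laser capture from frozen sections of the lungs of many C57/Bl6 mice at postnatal day 6, 10000 tips in all, and whole lung RNA came from pooled lungs of C57/Bl6 mice of the same age, with no genotype or treatment differing between the groups. Each tissue gave 2 RNA samples, from different litters in experiment 1 and experiment 2, and every sample was read on 2 arrays, so that 8 arrays measured 4 RNA samples. Both groups are pools of animals, whole lung itself contains septal tips, and in such bulk samples fewer cells of a type and less RNA per cell cannot be told apart. Values on arrays are given in the order array 1 and array 2 of experiment 1, then array 1 and array 2 of experiment 2.

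Superoxide dismutases convert superoxide to hydrogen peroxide, which catalase, the glutathione peroxidases and the peroxiredoxins then reduce. Glutathione peroxidases draw electrons from the tripeptide glutathione, which Gsr returns to its reduced form, and peroxiredoxins draw them from thioredoxin, which the thioredoxin reductases return to its reduced form, in both cases with NADPH. Glutathione transferases couple glutathione to electrophiles. Many of these genes are targets of the transcription factor NRF2 (gene Nfe2l2), which binds the antioxidant response element and which KEAP1, with the ubiquitin ligase scaffold CUL3, marks for degradation. The metallothioneins bind zinc and copper and are switched on by metals through the metal response element. In the lung these enzymes meet inhaled oxygen, and extracellular superoxide dismutase is abundant in lung and vessel walls.

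The promoters of 4 members are shown because 3 of them, Sod1, Txnrd1 and Mt2, belong to the genes that differed between tips and lung and carry the core of the antioxidant response element, and because Mt1 is the neighbour of Mt2 and shares its metal response element cores. The windows hold 250 bases before and 50 bases after the start of transcription, from RefSeq on the GRCm38.p6 build, on the + strand, 5′ to 3′. Capitals mark the core of the antioxidant response element, TGACNNNGC, and the metal response element cores, TGCACNC and TGCGCNC, searched on both strands. The Sod1 window lies at chr16:90220512-90220811, that of Txnrd1 (the only 1 of its 3 windows with a match) at chr10:82858956-82859255, that of Mt2 at chr8:94172368-94172667 and that of Mt1 at chr8:94178839-94179138.
Sod1: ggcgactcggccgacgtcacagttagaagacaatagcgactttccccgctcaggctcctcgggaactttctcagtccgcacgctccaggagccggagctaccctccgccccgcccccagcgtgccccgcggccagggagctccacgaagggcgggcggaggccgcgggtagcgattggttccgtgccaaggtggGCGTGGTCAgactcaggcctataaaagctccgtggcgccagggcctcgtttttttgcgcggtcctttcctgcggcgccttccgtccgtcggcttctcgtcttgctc
Txnrd1: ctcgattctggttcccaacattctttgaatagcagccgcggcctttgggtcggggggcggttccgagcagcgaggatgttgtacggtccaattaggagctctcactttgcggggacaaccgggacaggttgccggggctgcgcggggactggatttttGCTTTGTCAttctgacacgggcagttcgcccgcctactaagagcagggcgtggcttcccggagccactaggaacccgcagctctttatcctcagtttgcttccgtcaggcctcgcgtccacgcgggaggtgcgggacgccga
Mt2: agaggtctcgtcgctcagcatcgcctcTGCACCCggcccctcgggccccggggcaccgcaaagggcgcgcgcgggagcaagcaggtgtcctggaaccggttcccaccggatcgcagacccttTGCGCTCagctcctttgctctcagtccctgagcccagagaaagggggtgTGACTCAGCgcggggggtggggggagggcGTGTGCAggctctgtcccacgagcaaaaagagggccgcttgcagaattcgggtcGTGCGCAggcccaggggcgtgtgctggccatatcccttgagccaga
Mt1: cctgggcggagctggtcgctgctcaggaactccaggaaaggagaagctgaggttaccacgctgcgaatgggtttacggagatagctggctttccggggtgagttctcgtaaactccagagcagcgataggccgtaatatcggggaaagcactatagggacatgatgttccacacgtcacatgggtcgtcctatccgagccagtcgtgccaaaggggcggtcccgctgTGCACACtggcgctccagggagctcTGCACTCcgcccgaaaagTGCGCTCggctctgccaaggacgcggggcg

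The antioxidant core occurred once in each of the Sod1, Txnrd1 and Mt2 windows, and the metal cores occurred 4 times in the Mt2 window and 3 times in the Mt1 window, with no overlap between the kinds of motif. Windows were held for 45 of the 53 genes, 59 windows in all. The antioxidant core was in 8 of these windows (13.6%), against 12.4% of all 32851 promoter windows of the same length. The metal cores were in 16 of them (27.1%), against 25.7% of all windows. For each motif, the share of member windows was thus close to that of all windows. By gene, 8 of the 45 had an antioxidant core and 15 had a metal core, with no share over all genes computed. The other genes with an antioxidant core in a window were Gclm, Gsta3, Gstm5, Mgst1 and Txndc5. A match describes letters and does not show that a factor binds.

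All arrays had been scaled by the submitters to about the same mean signal. The background of an array was taken as the 95th percentile of 19 control probe sets of bacterial or yeast origin, which lay between 487 and 1244 on the tip arrays and between 314 and 568 on the lung arrays. Array 2 of tip experiment 1 had the highest background, and the next highest tip array stood at 792. The number of member probe sets above background ranged over arrays between 40 and 56 in tips and between 44 and 54 in lung. Differences are given on the log2 scale as tips minus lung, after an offset of 150.09 had been added to every signal, which understates the differences of dim probe sets. The test was limma over the 7453 probe sets that passed a filter on low values, with Benjamini-Hochberg adjustment and a threshold of 0.05. The median difference over all probe sets tested was larger the more dim ones were kept. It was 0.20 with a filter at the 60th percentile, 0.35 with the filter used and 0.47 without one. The median of the control probe sets was 121 to 332 on tip arrays and 66.9 to 97.3 on lung arrays, and its part in this was not tested.

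Of the 70 member probe sets, 54 passed the filter and were tested, and 16 were too dim. In the tips 9 of the 54 were higher (16.7%) and 1 was lower (1.85%) by the limma test, against 14.5% higher and 13.7% lower among all probe sets tested, where 28.3% were called in either direction. The share called higher was thus near that of the array as a whole, and the share called lower was below it, a contrast for which no test was made. When the fit was blocked by experiment, the counts were 10 higher and 3 lower, and with arrays centred on their medians 2 higher and 4 lower. At an unadjusted p under 0.05 there were 16 of the 54 (29.6%), against 43.6% of all probe sets tested. The median difference of the tested members was 0.42, beside 0.35 for all probe sets tested. All 4 tip arrays lay above all 4 lung arrays in 13 of the 54, against 24.1% of all probe sets tested, and below them in 4, against 18.0%. In 39 of the 54 (72.2%) the difference had the same sign in both experiments, against 78.8% of all probe sets tested. By the brightest probe set of each gene, 45 genes were tested, and 7 were higher and 1 was lower, against 14.6% and 15.1% of all 5642 genes.

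The genes higher in tips were Mgst3, Gstp1, Gstm1, Gstm3, Txnrd1, Txn2, Txnip, Txnl4a and Mt2, and the gene lower in tips was Sod1. For Gstm1, Gstm3 and Txnip another probe set of the same gene did not pass the test and had a difference below 0. No enzyme class had more than 2 probe sets past the threshold.

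**Figure D1:**
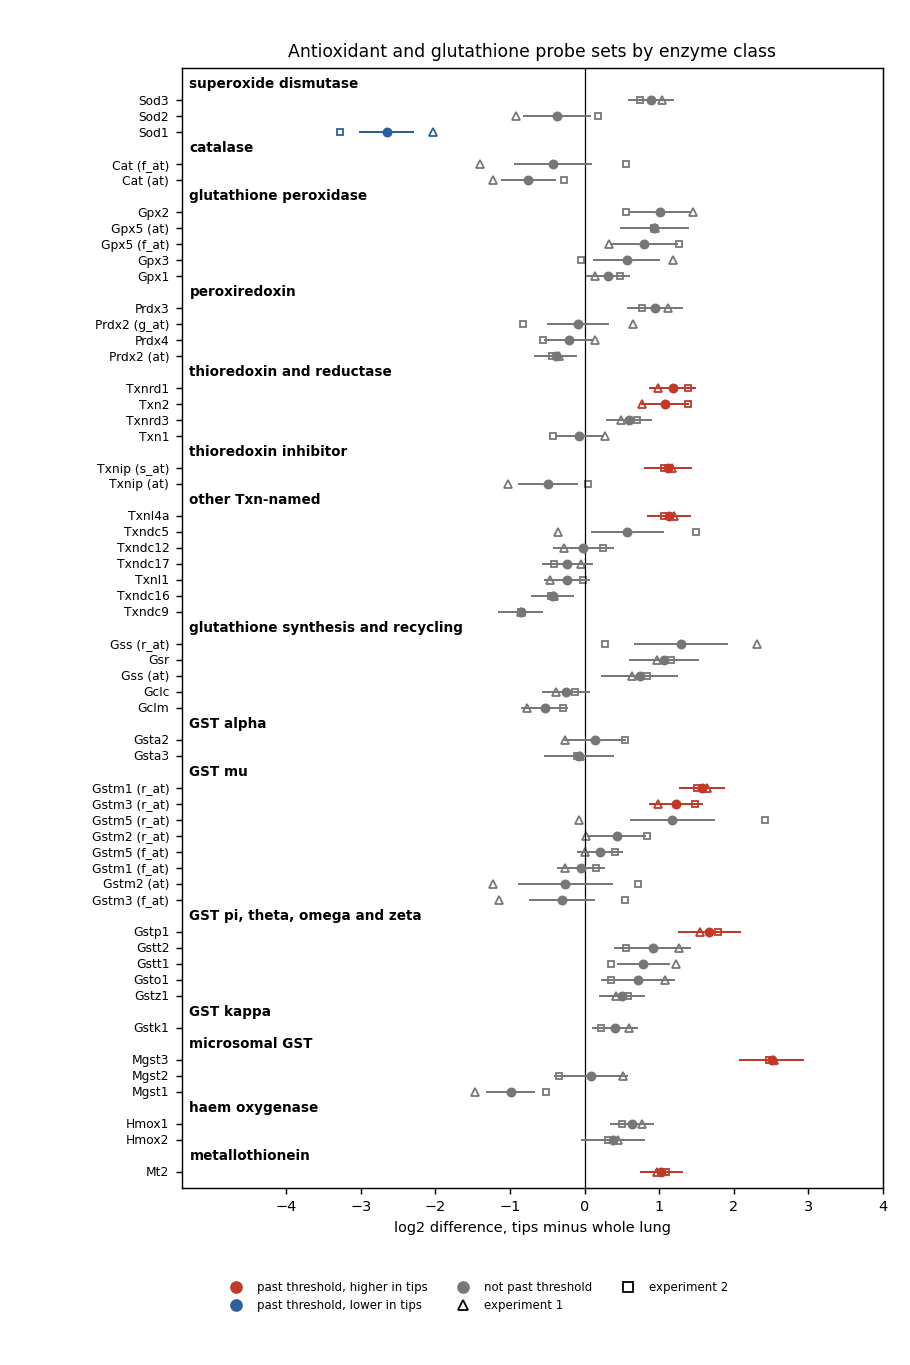
Log2 difference, tips minus whole lung, for the 54 tested member probe sets, ordered by enzyme class. Filled circles are the fitted differences with their standard error, open triangles and squares are experiments 1 and 2, red marks the 9 higher in tips and blue the 1 lower in tips. Sod1 stands alone at the left, at -2.66, and Mgst3 is farthest to the right, at 2.51.

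Among the superoxide dismutases, the cytosolic copper-zinc enzyme was lower in tips, and the other two did not pass the threshold. Sod1 (probe set 100538_at) had signals of 1255, 1772, 1161 and 475 on the tip arrays and of 6668, 6467, 9052 and 8251 on the lung arrays. The highest tip array thus lay far below the lowest lung array. The difference of -2.66 ± 0.37 (SE) had a limma adjusted p of 0.00202, and was -2.03 in experiment 1 and -3.28 in experiment 2. The mean signal was 1166 ± 492 in tips and 7609.6 ± 1474 in lung (SD, n = 2 RNA samples each). It was the only member past the threshold in each of the 20 alternative analyses, over which its difference ranged between -3.20 and -2.22.

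Sod3, the secreted enzyme of the extracellular matrix, had signals of 3555, 3272, 2665 and 3717 in tips and 1298, 1919, 1952 and 1708 in lung. All tip arrays were above all lung arrays, and the difference of 0.89 ± 0.31 narrowly missed the threshold (limma adjusted p = 0.0574). Sod2, the manganese enzyme of mitochondria, had 164, 1299, 1696 and 1013 in tips and 1022, 1228, 1142 and 1149.7 in lung. The first tip array lay under background and the others straddled the lung values, so that the difference was -0.37 ± 0.45 with a limma adjusted p of 0.558. Within the same arrays, the difference of Sod3 exceeded that of Sod1 by 3.55 on the log2 scale, with 3.07 in experiment 1 and 4.02 in experiment 2, and that of Sod2 exceeded it by 2.29. With 2 RNA samples a group, the two-sided exact permutation test cannot fall below p = 0.333. Both contrasts gave that value, so that the test decides nothing for them.

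Catalase, the haem enzyme of peroxisomes, did not pass the threshold with either of its probe sets. The brighter (f_at) had 1118, 820.0, 3156 and 4446 in tips and 2871, 2712, 2396 and 2598 in lung, a difference of -0.42 ± 0.53 (limma adjusted p = 0.561). It lay below lung in experiment 1 (-1.41) and above it in experiment 2 (0.56). The other probe set had a difference of -0.75 ± 0.37 (limma adjusted p = 0.145), with the same sign in both experiments.

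None of the 5 tested probe sets for glutathione peroxidases, selenium or cysteine enzymes that reduce peroxides with glutathione, passed the threshold, and 1 did so at an unadjusted p under 0.05. All 5 differences were above 0, except for Gpx1 (-0.23) when arrays were centred on their medians and for Gpx3 (-0.17) on array 1 of each RNA alone. Among all probe sets tested 62.1% lay above 0, and only 1 of these 5 was above background on all arrays. Gpx1, the cytosolic and most widely expressed form, had 3297, 4870.1, 4237 and 5422 in tips and 3590.0, 3653, 3749 and 3080.3 in lung. These groups overlapped, with a difference of 0.31 ± 0.29 (limma adjusted p = 0.436). The gastrointestinal form Gpx2 had the largest difference of the tested glutathione peroxidases, 1.01 ± 0.41 (limma adjusted p = 0.0905), and its values overlapped between 1026 to 2927 in tips and 423 to 1059.6 in lung. The plasma form Gpx3 differed by 0.57 ± 0.45, and the Gpx5 probe sets, for a form best known from the epididymis, by 0.94 ± 0.47 and 0.80 ± 0.46.

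Gpx4, which reduces lipid hydroperoxides in membranes, and Gpx7, of the endoplasmic reticulum, were too dim to be tested. Gpx4 had 259.8, 689.7, 613 and 342 in tips and 79.7, 43.3, 103 and 52.8 in lung, and Gpx7 had 1296, 186, 433 and 90.6 in tips and 63.2, 54.1, 24.1 and 55.4 in lung. All tip values lay above all lung values for both, but every lung array and all but 1 tip array were under background. The background of the tip arrays was itself higher than that of the lung arrays, and its part in these differences of 1.46 and 1.36 was not tested. Without the filter on dim probe sets Gpx4 passed as higher (limma adjusted p = 0.0369).

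The 4 tested probe sets for peroxiredoxins, thiol enzymes that reduce peroxides with thioredoxin, did not pass the threshold, with 1 at an unadjusted p under 0.05. Prdx2, the cytosolic form abundant in red cells, had on its brightest probe set 27244, 26914, 15463 and 9569 in tips and 18035, 16365, 20479 and 23044 in lung. The tips were above lung in experiment 1 (0.65) and below it in experiment 2 (-0.83). Its second tested probe set had all tip arrays below all lung arrays, with a difference of -0.39 ± 0.29 (limma adjusted p = 0.321). Prdx3, the mitochondrial form, had 3174, 952, 772 and 1949 in tips and 898, 586, 693 and 643 in lung, a difference of 0.95 ± 0.38 (limma adjusted p = 0.0892). Only 1 tip array of Prdx3 fell within the lung range. Prdx4, the form of the endoplasmic reticulum, differed by -0.21 ± 0.34. The difference of Prdx3 exceeded that of Prdx2 by 1.03 (exact permutation p = 0.333, the smallest possible).

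In the thioredoxin system, 2 of 4 tested probe sets were higher in tips and none was lower, against 14.5% higher and 13.7% lower among all probe sets tested. Txnrd1, the cytosolic reductase that feeds electrons from NADPH to thioredoxin, had 3610.5, 2468, 3362 and 3767 on the tip arrays and 1261, 1641, 1149 and 1408 on the lung arrays (99985_at). The lowest tip value was well above the highest lung value. The difference was 1.18 ± 0.32 (limma adjusted p = 0.025), and the mean signals were 3302 ± 371 in tips and 1365 ± 122 in lung (SD, n = 2 each). The call was lost after quantile normalisation and after median centring, with a difference as low as 0.64 and an adjusted p as high as 0.216. Txn2, the mitochondrial thioredoxin, had 4461, 5876, 4849 and 5405 in tips and 2562, 3347, 1843 and 1902 in lung (98130_at). Again no tip array fell within the lung range, and the difference was 1.08 ± 0.32 (limma adjusted p = 0.0366). Its mean signals were 5148 ± 29.3 in tips and 2414 ± 765 in lung.

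Txn1, the cytosolic thioredoxin, was bright in both tissues and did not separate them. Its signals were 16479, 14785, 16851 and 12549 in tips and 12502, 13181, 19205 and 20007 in lung, above lung in experiment 1 (0.28) and below it in experiment 2 (-0.43), with a fitted difference of -0.07 ± 0.33 (limma adjusted p = 0.882). Quantile normalisation of the arrays turned this difference to 0.63, still short of the threshold. Within the same arrays the difference of Txnrd1 exceeded that of Txn1 by 1.26, and that of Txn2 exceeded it by 1.15 (exact permutation p = 0.333 for each, the smallest possible). Txnrd3, a reductase with an added glutaredoxin domain best known from testis, differed by 0.60 ± 0.30 (limma adjusted p = 0.162), and by 0.94 after cyclic loess, where it passed (adjusted p = 0.0368). The mitochondrial reductase Txnrd2 was too dim to be tested, with 378, 599.6, 848 and 177 in tips and 21.5, 50.3, 92.7 and 106 in lung. All 4 tip values of Txnrd2 were above the lung values, while every lung array and all but 1 tip array were under background. Without the filter on dim probe sets it passed as higher (limma adjusted p = 0.0386).

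Txnip binds reduced thioredoxin and inhibits it, and also holds back glucose uptake. Its brighter probe set (160547_s_at) had 7099, 9573, 6156 and 5189 in tips and 3826, 3362, 2241 and 3036 in lung. The groups did not overlap, and the difference of 1.12 ± 0.33 passed the test (limma adjusted p = 0.0336). The other probe set had 1986, 329.6, 1560.2 and 2098 in tips and 1729, 2112, 1597 and 1898 in lung, with a difference of -0.49 ± 0.40 (limma adjusted p = 0.369). On this probe set 1 tip array lay far below the rest, and without it, an alternative chosen after seeing the data, the difference was 0.052.

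The 7 further genes whose symbols begin with Txn include proteins with a thioredoxin fold and other roles. Txnl4a, a component of the spliceosome with a thioredoxin-like fold, was higher in tips, with 3977, 6004, 4120.2 and 5163 on the tip arrays and 1684, 2489.5, 1703 and 2646 on the lung arrays (96113_at). No tip array fell within the lung range, and the difference was 1.13 ± 0.29 (limma adjusted p = 0.0221). Txndc9, which binds the chaperonin that folds actin and tubulin, had the opposite sign, with 5388, 3768, 3916 and 3331 in tips and 7722, 8871, 6717 and 6594 in lung. All tip arrays were below all lung arrays, and both experiments gave -0.85. The difference of -0.85 ± 0.30 missed the threshold (limma adjusted p = 0.0599) and passed it when blocked by experiment (adjusted p = 0.0439). The differences of Txndc5 and Txndc12 (both of the endoplasmic reticulum), Txndc16, Txndc17 and Txnl1 lay between -0.43 and 0.57, and none passed.

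None of the 5 tested probe sets for glutathione synthesis and recycling passed the threshold, with 1 at an unadjusted p under 0.05. Both subunits of glutamate-cysteine ligase, which makes the rate-limiting step, had differences below 0 in both experiments. The catalytic subunit Gclc had 2539.5, 1675, 1658 and 2229 in tips and 3804, 1945, 2651 and 1681 in lung, a difference of -0.25 ± 0.32, and the modifier subunit Gclm had 1968, 1588, 3394 and 1751 in tips and 3420.2, 2863, 3618 and 2538 in lung, a difference of -0.53 ± 0.32. The groups overlapped for each. Gss, which adds glycine in the last step, had 7939, 5918, 1048 and 1522 in tips and 1023, 1550.1, 947 and 1098 in lung on its brighter probe set. The tip arrays of experiment 1 stood high and those of experiment 2 were near the lung values, so that experiment 1 gave 2.31 and experiment 2 gave 0.28. It was 1.29 ± 0.63 over both (limma adjusted p = 0.146, and 0.0298 when blocked by experiment). Gsr, the reductase of oxidised glutathione, had a difference of 1.06 ± 0.47 (limma adjusted p = 0.114).

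Among the cytosolic glutathione transferases, the single pi-class gene named on the array and 2 of the 8 tested mu-class probe sets were higher in tips, and none was lower. Over all probe sets tested, 14.5% were higher and 13.7% were lower, and no test set these classes against those shares. Gstp1 (99583_at), the form best known from proliferating and epithelial cells, had 2116, 1227, 3429.6 and 2493 in tips and 496, 411, 822 and 660.3 in lung. Its lowest tip value exceeded its highest lung value, although 1 array of each group was under background. The difference was 1.67 ± 0.42 (limma adjusted p = 0.02), with mean signals of 2316 ± 912 in tips and 597 ± 203 in lung (SD, n = 2 each). In both experiments the difference was of like size, 1.55 and 1.79. With signals under the highest background (1244) raised to it, the difference was 0.75 and lost the call (adjusted p = 0.160).

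The mu-class genes lie next to each other on chromosome 3 and are similar in sequence, so that their probe sets may share signal. The r_at probe set of Gstm1 (161633_r_at) had 3749, 5789, 2985 and 4721 in tips and 1558, 1229.8, 1002 and 1496 in lung. All tip arrays were above all lung arrays, and the difference was 1.58 ± 0.31 (limma adjusted p = 0.00799). The f_at probe set of Gstm1 (93543_f_at), whose name marks probes shared by a gene family, had 20522, 21368, 23129 and 21400.1 in tips and 23731, 26493, 18922 and 21004 in lung. There the groups overlapped and the difference was -0.05 ± 0.32 (limma adjusted p = 0.918), or 0.72 after quantile normalisation and 0.80 after cyclic loess, neither past the threshold.

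Gstm3 showed the same split. Its r_at probe set (97682_r_at) had 3783, 2239, 2089 and 3229.8 in tips and 1111, 1768, 625 and 1112 in lung, with no overlap and a difference of 1.23 ± 0.36 (limma adjusted p = 0.0334). It lost the call after quantile normalisation, cyclic loess and median centring, with a difference as low as 0.69, and with a floor at 1244 (adjusted p = 0.0583) or at 792 (adjusted p = 0.0503). Its f_at probe set had 1878, 1711, 4969 and 5100.5 in tips and 5262, 3261, 3738 and 3120.1 in lung, and the sign changed between experiment 1 (-1.14) and experiment 2 (0.54). The calls of Gstm1 and Gstm3 thus differed between probe sets. Gstm5 had 2 tested probe sets, with differences of 0.21 ± 0.31 and 1.17 ± 0.57, and Gstm2 had -0.26 ± 0.64 and 0.43 ± 0.39, none past the threshold. After cyclic loess the first Gstm5 probe set had 0.95 and passed (limma adjusted p = 0.0473). Over all members, 9 genes had at least 2 tested probe sets, 4 of these had opposite signs, and in no gene did all tested probe sets pass.

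The theta, omega, zeta and kappa transferases had differences above 0 and did not pass the threshold, and under median centring those of Gstk1 (-0.14) and Gstz1 (-0.036) turned below 0. Gstk1, a form of mitochondria and peroxisomes, had 2973, 3349.6, 2446 and 2638 in tips and 2056, 2036, 2213 and 2108 in lung, and Gstz1, which acts in tyrosine breakdown, had 3128, 2413, 3164 and 3198 in tips and 2067, 1959.5, 2153 and 1987 in lung. Both had all tip arrays above all lung arrays, with differences of 0.41 ± 0.31 and 0.51 ± 0.31. Gstt1 differed by 0.79 ± 0.36 with no overlap, Gstt2 by 0.91 ± 0.52 and Gsto1 by 0.72 ± 0.50, the last 2 with overlapping groups. In the alpha class, Gsta2 had 366, 1275, 1176 and 897 in tips and 1043, 743, 1008 and 412 in lung, a difference of 0.14 ± 0.41, and Gsta3 differed by -0.08 ± 0.47. Gsta1 and Gsta4 were too dim to be tested.

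The microsomal transferases are membrane proteins unrelated to the cytosolic ones, and 2 of them had differences of opposite sign. Mgst3 (96258_at), which is known for glutathione-dependent peroxidase activity and for making leukotriene C4, had 1446, 2979.8, 1730.5 and 1382 in tips and 102, 434, 220.0 and 101 in lung. Every tip array was above background, against 1 of the 4 lung arrays. The difference of 2.51 ± 0.43 passed the test (limma adjusted p = 0.00454) and was of nearly equal size in experiment 1 (2.54) and experiment 2 (2.48). Mean signals were 1885 ± 464 in tips and 214 ± 76 in lung (SD, n = 2 each). Since 3 of the 4 lung arrays were under background, its size is uncertain: with signals under the highest background (1244) raised to it, the difference was 0.48 and lost the call (adjusted p = 0.122), and with a lower floor of 792 it was 1.05 and kept it. A second Mgst3 probe set was under background on all arrays.

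Mgst1, the abundant form of liver and lung membranes, had 5805, 3016, 8439 and 5312 in tips and 14794, 9569, 12429 and 7459 in lung. The tips were lower in experiment 1 (-1.47) and in experiment 2 (-0.51), although the groups overlapped. The difference of -0.99 ± 0.33 just missed the threshold (limma adjusted p = 0.0506), and it passed when blocked by experiment (adjusted p = 0.0282). The difference of Mgst3 exceeded that of Mgst1 by 3.50, with 4.01 in experiment 1 and 2.99 in experiment 2 (exact permutation p = 0.333, the smallest possible). Mgst2, another leukotriene C4 synthase, differed by 0.09 ± 0.49.

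Hmox1, the inducible enzyme that opens the haem ring, had 5319, 6423, 3548 and 6111 in tips and 2854, 3935, 2844 and 3675 in lung. The tips were higher in experiment 1 (0.78) and in experiment 2 (0.51), but the groups overlapped. The difference of 0.64 ± 0.30 did not pass the threshold (limma adjusted p = 0.127). The constitutive Hmox2 differed by 0.38 ± 0.43, with the sign turned under 3 of the scalings. Nqo1, the quinone reductase often read as a marker of NRF2 activity, was too dim to be tested, with 67.8, 88, 439.5 and 509.8 in tips and 103, 216, 320.0 and 316 in lung on its brighter probe set. Only 1 lung array and no tip array stood above background there.

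The metallothioneins Mt1 and Mt2 are neighbours on chromosome 8. Mt2 (101561_at) had 6138, 5041, 4723 and 5834 in tips and 2264, 3367, 2412 and 2368 in lung. The tip arrays were all above the lung arrays, and the difference of 1.03 ± 0.29 passed the test (limma adjusted p = 0.0304), with 0.97 in experiment 1 and 1.09 in experiment 2. Mean signals were 5434 ± 219.7 in tips and 2603 ± 301 in lung (SD, n = 2 each). Mt1 was too dim to be tested, with 183, 221, 308 and 136 in tips and 229, 120.0, 569 and 431 in lung. No tip array and 2 lung arrays stood above background for Mt1, so that its probe set cannot show whether it shared the direction of Mt2.

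**Figure D2:**
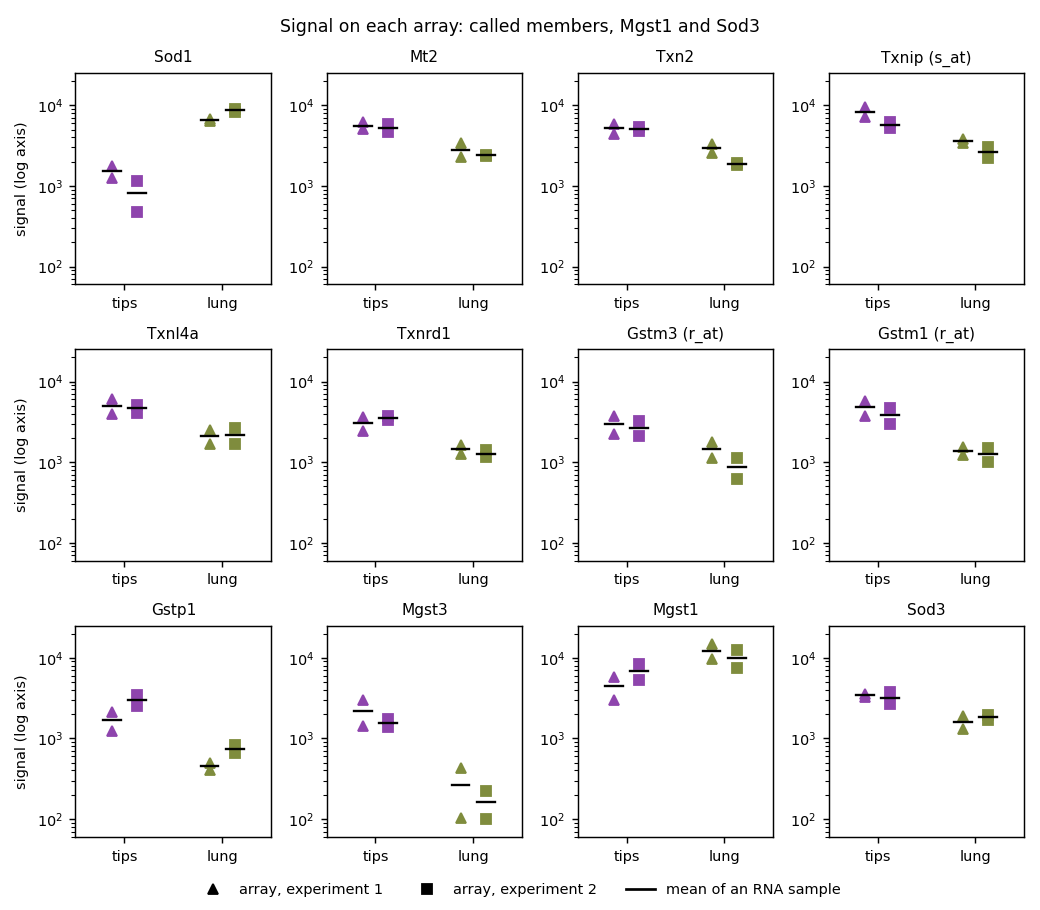
Signal on each array (log axis) for the 10 members past the threshold and for Mgst1 and Sod3, which narrowly missed it. Tips are on the left and whole lung on the right of each panel, triangles and squares are arrays of experiments 1 and 2, and bars are the means of an RNA sample. The tip and lung arrays do not overlap in any of the 10, with Sod1 lower and the other 9 higher in tips, whereas those of Mgst1 overlap.

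Grouped by where the proteins act, 5 genes were picked for mitochondrial enzymes, which is not a full list of such members. Of these, 4 were tested: Txn2 passed, Prdx3 (0.95) and Gstk1 (0.41) were above 0, and Sod2 (-0.37) was below 0. Of the 8 probe sets for the 7 selenoproteins among the members, 5 were tested, and 3 of these were above background on all arrays. All 5 had differences above 0 apart from the exceptions given for Gpx1 and Gpx3, with a median of 0.60, and Txnrd1 alone passed. Among all probe sets tested, 62.1% were above 0, the median was 0.35 and 14.5% were higher by limma. Both groupings were made after the values were seen.

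Genes around these enzymes were read from 8 lists, by the brightest probe set of each gene. Of all 5642 genes tested in this way, 14.6% were higher and 15.1% were lower in tips. No test set the count of a list against these shares. Of the regulators of NRF2, 7 of 10 listed genes were tested, 3 were lower in tips and 1 was higher. Nfe2l2, which encodes NRF2 itself, had 2793, 3957, 5289 and 5031 in tips and 15431, 12777, 14628 and 11619 in lung. The groups were far apart, with a difference of -1.67 ± 0.32 (limma adjusted p = 0.00666). Bach1, a haem-regulated repressor that competes with NRF2 for the same element, had 2251, 2239, 4318 and 2806 in tips and 17957, 17667, 15563 and 15843 in lung, a difference of -2.52 ± 0.32 (limma adjusted p = 0.0016). Cul3 had 1450.5, 2485, 1688 and 828 in tips and 9616, 7959, 9171 and 9191 in lung, a difference of -2.46 ± 0.32 (limma adjusted p = 0.00171). Thus the messages of the activator, of the competing repressor and of the ligase that degrades it were all lower in tips.

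Mafk, a small Maf protein that pairs with NRF2 and with BACH1, was higher, with a difference of 1.24 ± 0.38 (limma adjusted p = 0.0389), and lost the call under quantile, cyclic loess and median scaling. For its relative Mafg the brighter probe set had -0.44 ± 0.39 (limma adjusted p = 0.411), and a dimmer one had 1.94 ± 0.42 (limma adjusted p = 0.0112). Keap1 was too dim to be tested, with a difference of 1.36. The median of the 7 tested regulators was -0.44.

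NADPH, the source of electrons for both reductases, is made by the pentose phosphate pathway and by malic enzyme, isocitrate dehydrogenases and the mitochondrial transhydrogenase. Of 8 tested genes, 2 were higher and 2 were lower in tips, and 3 were higher when blocked by experiment. The cytosolic malic enzyme Me1 had 462, 732, 145 and 653 in tips and 5251, 6743, 4758 and 5413 in lung. The difference was -3.24 ± 0.36 (limma adjusted p = 0.00111). All tip arrays were under background and all lung arrays were above it. Set against the background of each tip array, Me1 was at least 7.02-fold lower in tips. The limit sets the mean of the lung arrays against background or the tip signal, whichever was higher on each array. Nnt, the transhydrogenase, had signals of 117 to 742 in tips and 1144 to 2024 in lung, a difference of -2.12 ± 0.47 (limma adjusted p = 0.0121). It was likewise under background on all tip arrays, and at least 1.97-fold lower by this limit. With the same floor at the highest background, Nnt differed by -0.31 and lost the call (limma adjusted p = 0.370).

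Both genes higher in tips belong to the pentose phosphate pathway or come from a gene of it. Pgls, the lactonase of the pathway's second step, had 3181, 2778, 2032 and 1526 in tips and 456, 139, 511 and 849 in lung, a difference of 2.07 ± 0.46 (limma adjusted p = 0.0122). G6pd2, a retrogene of glucose-6-phosphate dehydrogenase that may share signal with G6pdx, was higher by 1.83 ± 0.55 (limma adjusted p = 0.0377), with 3 tip arrays and 1 lung array above background, and lost the call under quantile, cyclic loess and median scaling. Taldo1, the transaldolase, had 228, 749, 1824 and 1819 in tips and 660.0, 95.3, 84.8 and 115 in lung. The groups overlapped, with 0.39 in experiment 1 and 2.98 in experiment 2. The difference of 1.69 ± 0.65 missed the threshold (limma adjusted p = 0.0803) and passed it when blocked by experiment (adjusted p = 0.0448).

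Of the 7 tested genes of thiol repair, Pdia6, a disulfide isomerase of the endoplasmic reticulum, was lower in tips (-1.41 ± 0.38, limma adjusted p = 0.0262) and none was higher, with 5 of the 7 at an unadjusted p under 0.05, against 43.6% of all probe sets tested. Srxn1, which repairs overoxidised peroxiredoxins, had 0.98 ± 0.35 (limma adjusted p = 0.0608) with all tip arrays above all lung arrays. Of the 4 tested genes of glutathione export, breakdown and cystine uptake, Slc3a2, the heavy chain of the cystine carrier and of other amino acid carriers, was higher in tips. It had 7017, 7486, 5955 and 5022 in tips and 3090.3, 2196, 1910.1 and 2448 in lung, a difference of 1.35 ± 0.31 (limma adjusted p = 0.0135). Its cystine-carrying partner Slc7a11 was too dim to be tested.

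**Figure D3:**
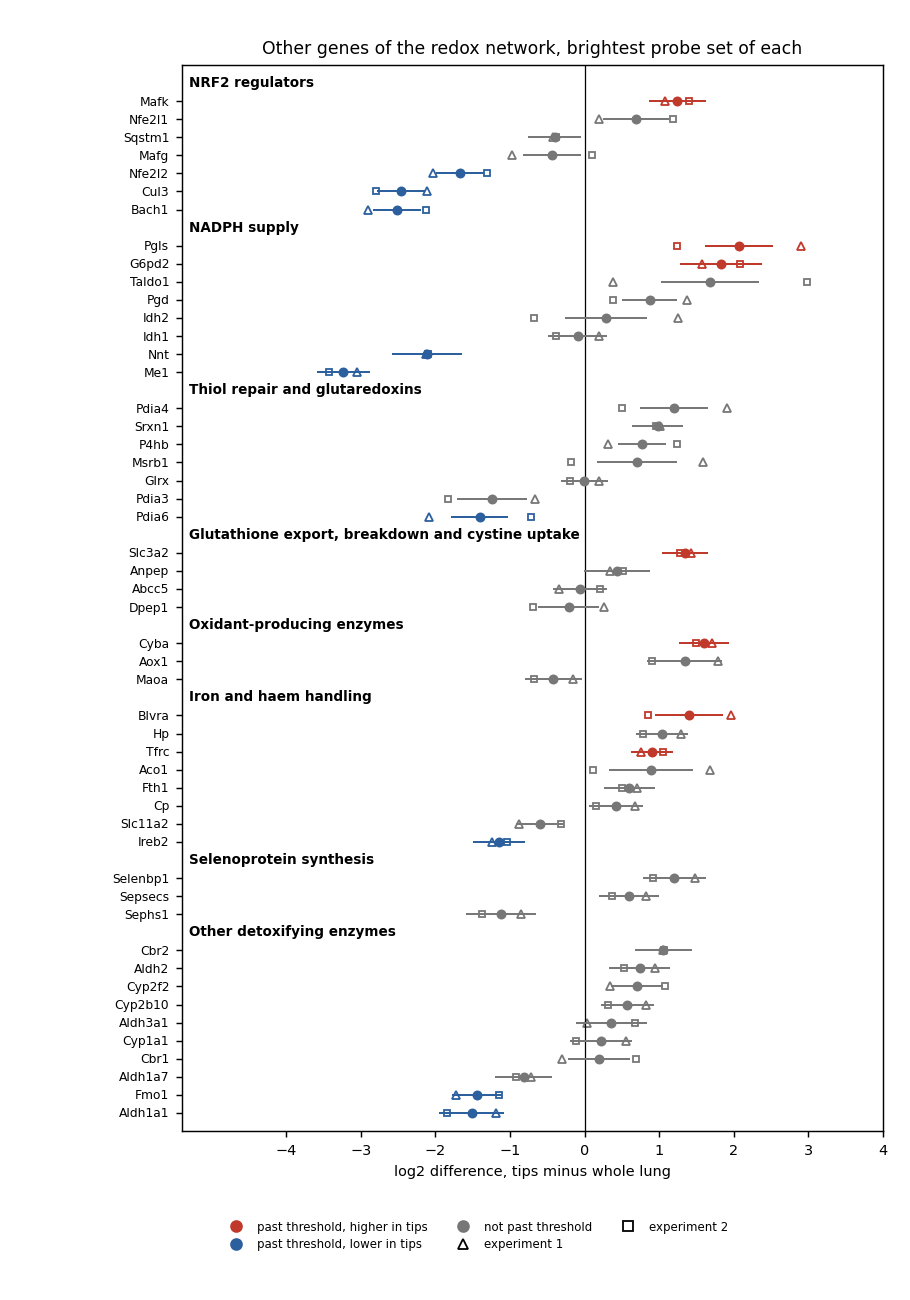
Log2 difference, tips minus whole lung, for the tested genes of the 8 lists around the antioxidant enzymes, by the brightest probe set of each gene. Filled circles are the fitted differences with their standard error, and open triangles and squares are experiments 1 and 2. Bach1, Cul3 and Nfe2l2 lie together at the left among the NRF2 regulators, and Me1 and Nnt lie opposite Pgls and G6pd2 in NADPH supply.

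Markers of the lung's cell types also differed between the groups. Their counts below stand beside 14.6% higher and 15.1% lower among all genes by brightest probe set. Alveolar type II cell markers, for the surfactant-making epithelium, summed to 127713 to 142742 on the tip arrays and 39519.8 to 57718 on the lung arrays, with 2 of 6 tested genes higher, and Slc34a2 also when blocked by experiment (limma adjusted p = 0.0379). Type I cell markers summed to 33924 to 45271 on the tip arrays and 70285 to 81965 on the lung arrays, with 1 of 3 tested genes lower, Hopx (-1.76 ± 0.31). Cav1 had -0.88, and Ager had 0.89 and passed as higher when blocked by experiment (limma adjusted p = 0.0845, and 0.0419 with the block). Of the club cell markers, the airway secretory cells rich in detoxifying enzymes, 1 of 4 was higher and 1 lower, and the list summed to 37888 to 104032 on the tip arrays and 41309 to 63823 on the lung arrays. The ciliated cell list, also of the airway, summed to 4322 to 5121 on the tip arrays and 994 to 2180.1 on the lung arrays, with 1 of 2 tested genes higher. Scgb1a1 of the club cell list and Foxj1 of the ciliated cell list were above background on all 4 tip arrays. Tppp3 and Tekt1, also of the ciliated list, were above background on no tip array, and Tekt1 on no lung array either.

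Macrophage markers summed to 22053 to 31884 on the tip arrays and 42541 to 62643 on the lung arrays, with 2 of 5 tested genes lower, Ctss (-3.05 ± 0.31) and Mrc1 (-1.62 ± 0.51), while Chil3 had -0.64, Cd68 0.72 and Lyz2, which was also listed for type II cells, 0.60, and with Marco and Itgam under background on all arrays. Lymphocyte markers summed to 4274 to 7196 on the tip arrays and 4687 to 5392 on the lung arrays, with 1 of 4 tested genes lower and Cd3e under background on all arrays. The lower gene was Ptprc (-1.95 ± 0.41), while Cd79a had 0.0028, Ms4a1 0.70 and Cd2 0.82, none of them past the threshold. Red cell markers summed to 15199.6 to 76244 on the tip arrays and 6549.9 to 29483 on the lung arrays, with 1 of 3 higher, and Hba-a1 (1.37 ± 0.80) also when blocked by experiment (limma adjusted p = 0.215, and 0.00479 with the block). Endothelial markers summed to 54329 to 84335 on the tip arrays and 33361 to 37557 on the lung arrays, with 4 of 7 higher and 1 lower.

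Smooth muscle and myofibroblast markers, the cells known at septal tips, summed to 27983 to 43862 on the tip arrays and 14989.7 to 39899 on the lung arrays, with 4 of 6 higher and Acta2 at 0.09 ± 0.42. Fibroblast markers summed to 102357 to 113372 on the tip arrays and 53200.4 to 78115 on the lung arrays, with a median difference of 0.079 over the 6 tested. The values ran from -0.83 for Pdgfra and -0.79 for Dcn to 1.20 for Col1a2, and only Col1a2 passed, when blocked by experiment (limma adjusted p = 0.0518, and 0.0342 with the block). Mesothelial markers summed to 2376 to 6043 on the tip arrays and 1897 to 2568 on the lung arrays, with 1 of 2 tested genes higher. That gene was Krt19 (2.04 ± 0.49), while Upk3b had -0.89 ± 0.35 and did not pass. The 3 cartilage markers on the array were all too dim to be tested and summed to 826 to 2258 on the tip arrays and 431 to 1069 on the lung arrays. The part of these cell types in the differences of the antioxidant genes was not tested.

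How the arrays were scaled bore on most of the calls. The median difference of all tested probe sets was 0.35 by the trimmed mean, 0.03 after quantile normalisation, 0.06 after cyclic loess and -0.19 after median centring. With it, the calls over all probe sets were 1084 higher and 1022 lower by the trimmed mean, 618 and 1012 after quantile normalisation, 814 and 1138 after cyclic loess, and 271 and 1512 after median centring. Sod1, Mgst3 and the r_at probe set of Gstm1 passed the threshold under each of 4 other scalings, these 3 and the deposited scale. Under median centring the 4 members lower in tips were Sod1, Mgst1 (-1.53), Txndc9 (-1.40) and the dimmer Cat probe set (-1.29).

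The calls also rested on both lung RNA samples. Without that of experiment 1 no member was higher by limma (10 at an unadjusted p under 0.05), and without that of experiment 2 again none was (5 unadjusted), while Sod1 alone was lower in each case. Without the tip RNA of experiment 2 there were 17 higher and 6 lower, and without that of experiment 1 there were 11 higher and 2 lower. Over the 4 fits without 1 RNA sample, the difference of Mgst3 ranged between 2.31 and 2.71, that of Gstm1 r_at between 1.43 and 1.73, that of Mt2 between 0.93 and 1.13 and that of Gstp1 between 1.27 and 2.07. In these fits the lone RNA sample is taken to vary like the other group.

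**Figure D4:**
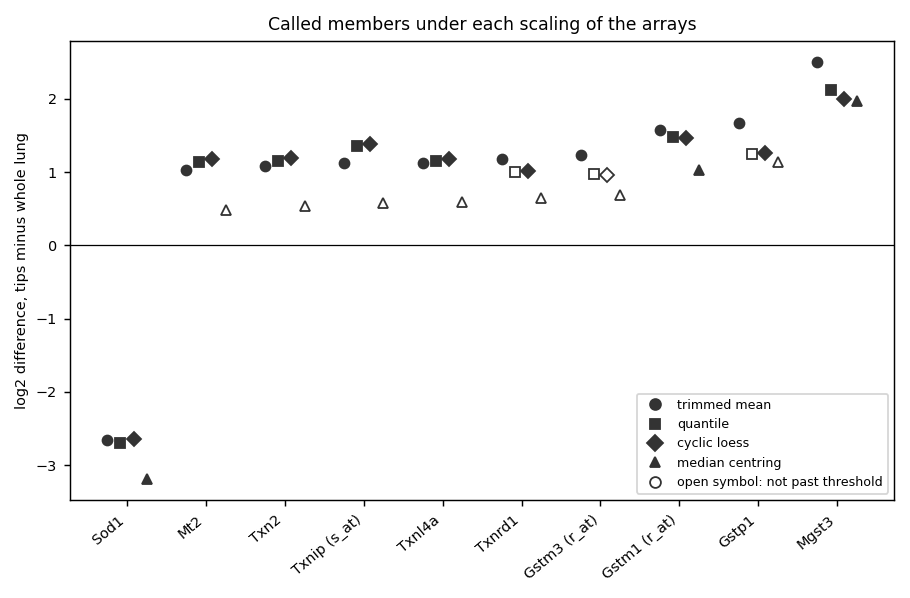
Log2 difference, tips minus whole lung, of the 10 members past the threshold under the trimmed mean and 3 other scalings of the arrays, with open symbols where the limma test was not passed. No member changed sign, and under median centring Sod1, Mgst3 and the r_at probe set of Gstm1 kept filled symbols.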

How the data were processed

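Septal tips and whole lung were measured on 8 Affymetrix arrays of 4 RNA samples. The deposited values are intensities, a linear signal per probe set, which the authors made with MAS5, per the submitters' processing notes. They had been scaled array by array, since the mean signal after leaving out 2% of probe sets at each end was close to 1501 on all arrays. Per the labels' protocols, RNA came from a PicoPure kit and was amplified with a RiboAmp kit, a step that the labels of only 1 lung array state and that the design text gives for both tissues. Groups came from the sample titles, since the tip samples' description speaks of whole lung tissue.

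Each array was brought to a common trimmed mean of 1500.9, 150.09 (10% of it) was added and log2 was taken. The 66 control probe sets and those with a mean log2 value under the 40th percentile were left out, which kept 7453, and the 2 arrays of an RNA were averaged. The test was that of limma 3.58.1 (R 4.3.3; lmFit, eBayes with intensity trend, Benjamini-Hochberg), with 2 residual and 7.05 prior degrees of freedom. The scripts were tested on simulated data. Few RNA samples limit the precision, and the median standard error was 0.40.

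Annotation gave 1 symbol to 10855 probe sets, several to 396 and none to 1237, and 10839 symbols were updated by gene ID through RefSeq. Another 2 probe sets with several symbols include a member name and were left out. The experiment pairs the groups by shared preparation per the design text, and the deviations of paired samples correlated at 0.0452, so that a fit with it as a block was also run. Values on every array are given for members past the threshold and for the brightest probe set of each class, the rest by difference or range, and at most 4 genes of each list were to be named, those past the threshold first. Extra names, the promoters shown and the grouping by organelle and selenium were chosen after the values were seen. The pairs of members contrasted within a class were not fixed in the plan. The members, lists and markers were chosen with earlier results of these data known. Alternatives covered scaling, offset, filter, floors, variance trend, single arrays, single RNA samples and the array with the highest background. Protein sequences were not used here.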

Additional observations from a re-analysis of the deposited data

Results flagged for a closer look

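Among 108 groups of 4 arrays, one for each tested member and tissue, 3 had a single array far from the other 3 by the size of its gap relative to the group's range (Dixon's criterion). Chance sets about 1 in 20 groups of 4 independent values apart in this way. Here each RNA was read on 2 arrays, so that this rate need not hold. For the dimmer Cat probe set, array 2 of tip experiment 1 read 601.7, while the other tip arrays lay between 1419 and 1604. For Gstz1 the same array read 2413, against 3128 to 3198 on the other tip arrays. For Mt2, array 2 of lung experiment 1 read 3367, against 2264 to 2412 on the other lung arrays. Array 2 of tip experiment 1 had the highest background of all arrays, and its part in the Cat and Gstz1 values was not tested.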

How the results depend on the processing

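Sod1 stayed lower and past the limma threshold in all 20 alternatives, while the 9 members higher in tips passed in 10 to 17 of them, most often Gstm1 r_at. Of 1378 values of members and named genes recomputed under the alternatives, 1142 kept their direction and side of the threshold, 145 fell short of it, 29 newly passed and 62 turned sign. The experiment as a replicate block, the paired fit, gave 10 members higher and 3 lower, adding Gss r_at, Mgst1 and Txndc9, and changed no other member's call. Members higher and lower were 2 and 4 after median centring, 4 and 1 with a common floor at the highest background (1244, where 48 members were tested because probe sets under the floor on all arrays were dropped), 5 and 1 with a lower floor (792), 5 and 1 with array 1 of each RNA, 3 and 2 with array 2, and 9 and 2 both with an offset of 30% and with a filter at the 60th percentile. Without 1 RNA sample, the counts ranged from 0 to 17 higher and from 1 to 6 lower, and over all probe sets from 349 to 3324 called (556 without the lung RNA of experiment 2), against 2106 by the full fit. All probe sets called were 822 with the common floor and 1229 with array 1. Leaving out the array of highest background, chosen after the data were seen, gave 6 higher and 1 lower. The cause of these changes was not tested.

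The turned signs were of members short of the threshold. After quantile normalisation the sign turned for Gsta2 (-0.34), Gstm1 f_at (0.72), Hmox2 (-0.14), Mgst2 (-0.41), Prdx2 g_at (0.62) and Txn1 (0.63). After cyclic loess it did so for Gsta2 (-0.34), Gstm1 f_at (0.80), Hmox2 (-0.15), Mgst2 (-0.48), Prdx2 g_at (0.72), Prdx2 at (0.060) and Txn1 (0.68). After median centring it did so for Gpx1 (-0.23), Gsta2 (-0.40), Gstk1 (-0.14), Gstm2 r_at (-0.11), Gstm5 f_at (-0.33), Gstz1 (-0.036), Hmox2 (-0.16) and Mgst2 (-0.45). With an offset of 30% it did so for Gsta3 (0.0073) and Txndc12 (0.0060). With the common floor it did so for Gsta3 (0.042) and Sod2 (0.12). With the lower floor it did so for Gsta3 (0.24), Gstm2 at (0.099), Sod2 (0.028) and Txndc12 (0.16). With array 1 of each RNA only it did so for Gpx3 (-0.17), Gsta2 (-0.51), Gsta3 (0.073), Gstm1 f_at (0.040), Gstm2 at (0.012), Prdx2 g_at (0.095), Txn1 (0.10) and Txnip at (0.077). With array 2 of each RNA only it did so for Gclc (0.090), Mgst2 (-0.38), Txndc12 (0.29) and Txndc5 (-0.21). Without the array of highest background (an alternative chosen after seeing the data) it did so for Gsta2 (-0.23), Mgst2 (-0.42) and Txnip at (0.052). Without 1 RNA sample each, members whose sign turned had differences of these ranges: Cat f_at (-1.33 to 0.48), Gsta2 (-0.089 to 0.37, with -0.038 without the lung RNA of experiment 2), Gsta3 (-0.37 to 0.22), Gstm1 f_at (-0.21 to 0.11), Gstm2 r_at (-0.053 to 0.91), Gstm2 at (-1.20 to 0.69), Gstm3 f_at (-1.01 to 0.41), Mgst2 (-0.27 to 0.45), Prdx2 g_at (-0.66 to 0.48, with 0.080 without that same RNA), Prdx4 (-0.52 to 0.10), Sod2 (-0.93 to 0.19), Txn1 (-0.38 to 0.23), Txndc12 (-0.22 to 0.18) and Txndc5 (-0.16 to 1.31). Signal over background limits the 16 untested members, and 8 member probe sets lay under background on all arrays.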

Other observations

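Genes that handle iron and haem, which feed and limit oxidant chemistry, moved in both directions: of 8 tested genes, 2 were higher in tips and 1 was lower by the limma test. Of all genes by brightest probe set, 14.6% were higher and 15.1% were lower. Tfrc, the transferrin receptor, had 10641, 9536, 10509 and 12813 in tips and 4782, 7319, 4227 and 7171 in lung, a difference of 0.90 ± 0.29 (limma adjusted p = 0.0443). Blvra, the reductase that turns the product of haem oxygenase into bilirubin, had a difference of 1.40 ± 0.46 (limma adjusted p = 0.0478), though its call held in only 5 of 19 alternatives. Ireb2, an iron sensor that stabilises the Tfrc message, was lower, with 1217, 429.9, 936 and 776 in tips and 2002, 1915, 2148 and 1709.7 in lung and a difference of -1.14 ± 0.35 (limma adjusted p = 0.039). Hp, the haptoglobin that binds free haemoglobin, had 1.04 ± 0.35 (limma adjusted p = 0.0514, and 0.0219 when blocked by experiment). Red cell markers were also higher in sum on some tip arrays, and their part in these values was not tested.

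Of 3 tested genes for oxidant-producing enzymes, Cyba, the membrane subunit shared by NADPH oxidases, was higher in tips. It had 4513, 2749, 3968 and 4756 in tips and 997, 954, 1348 and 1555 in lung, a difference of 1.60 ± 0.34 (limma adjusted p = 0.00983), while its other probe set had 0.40 ± 0.50 (limma adjusted p = 0.559). Of 10 tested genes for other detoxifying enzymes, 2 were lower and none was higher, against 15.1% and 14.6% of all genes. An unadjusted p under 0.05 was reached by 3 of the 10, against 44.9% of all genes. Fmo1, a flavin monooxygenase, had 7569, 3985, 10723 and 7749.8 in tips and 23426, 14665, 25364 and 16448 in lung, a difference of -1.44 ± 0.34 (limma adjusted p = 0.0148). Aldh1a1, which makes retinoic acid and was also listed as a club cell marker, had -1.51 ± 0.44 (limma adjusted p = 0.0323), while its other probe set had 0.84 ± 0.39. Both lost the call after quantile normalisation. None of 3 tested genes around selenoprotein synthesis passed by limma, with 2 at an unadjusted p under 0.05, and Selenbp1, a selenium-binding protein, had 1.20 ± 0.42 (limma adjusted p = 0.0606, and 0.029 when blocked by experiment).

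Values by the kind of probe set are given as a description, with no test. All 6 tested members whose names end in r_at, which marks probe sets that did not meet every rule of probe choice, had differences above 0, with a median of 1.20 (Gstm2 turned to -0.11 under median centring). Over the whole array 358 of 448 tested r_at probe sets (79.9%) did so, against 62.1% of all tested probe sets, with a median of 0.74, against 0.35 for all tested probe sets. For f_at names 59.0% of the 705 tested probe sets were above 0, with a median of 0.29, and 2 of the 5 tested members. Both called mu-class transferases rested on r_at probe sets, of which 21.4% were higher by limma over the whole array.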
